A study of Mus musculus with 15 samples.

Results

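The genes described here are interleukin 10 (Il10), the 2 chains of its receptor (Il10ra and Il10rb) and 3 transcription regulators tied to the IL-10 pathway (Maf, Nfil3 and Bcl3). They were chosen by name, as the rows of the raw count matrix whose Ensembl identifier carries 1 of these symbols, which gave 6 genes of 53465. All 6 passed the filter on low counts and were among the 13938 genes tested. Their levels were followed over 5 groups of 3 RNAseq libraries from mouse bone marrow-derived macrophages (BMDMs), differentiated in culture with M-CSF (20 ng/ml for 7 days).

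The control group received no cytokine. The IL-4 group was kept for 24 h with IL-4 at 10 ng/ml, the IL-4+IL-6 group with this dose and IL-6 at 40 ng/ml added to it, the IL-13 group with IL-13 and the IL-6+IL-13 group with IL-6 and IL-13. The doses of these last groups are known only for other assays with the same treatments, in which IL-13 and IL-6 were each used at 40 ng/ml. The methods take BMDMs from mice aged 8 to 12 weeks, whereas the labels of these libraries give no genotype, age or sex. A group with IL-6 alone is not analysed here, so each effect of IL-6 below is an effect on top of IL-4 or IL-13. The replicates are named as biological, and the methods say of the data in general that experiments were repeated independently. The labels do not tie these libraries to separate mice or cultures, so the p-values measure the spread between these samples, which may be technical.

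IL-10 is the main anti-inflammatory cytokine made by macrophages and lymphocytes. It binds the private chain Il10ra, which recruits Il10rb, a chain shared with other receptors of the family, and the kinases JAK1 and TYK2 then activate the transcription factor STAT3, through which macrophages lower the production of inflammatory cytokines. IL-6 activates STAT3 through its own receptor, whereas IL-4 and IL-13 activate STAT6. Maf (c-Maf) is a leucine zipper factor that drives Il10 transcription in macrophages and T cells, Nfil3 is a leucine zipper factor that is itself raised by IL-10 and by IL-4, and Bcl3 is an atypical IκB protein that binds the p50 and p52 subunits of NF-κB in the nucleus and is known as an IL-10-raised gene in macrophages.

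On GRCm38, the build in the submitters' processing notes, Il10 (ENSMUSG00000016529) lies at chr1:131019845-131024974 on the plus strand, Il10ra (ENSMUSG00000032089) at chr9:45253837-45269149 on the minus strand and Il10rb (ENSMUSG00000022969) at chr16:91406164-91425834 on the plus strand. Maf (ENSMUSG00000055435) lies at chr8:115682942-115707794, Nfil3 (ENSMUSG00000056749) at chr13:52967209-52981073 and Bcl3 (ENSMUSG00000053175) at chr7:19808462-19822770, all on the minus strand. Il10rb shares 569 exonic bases with Gm21970 on the same strand, and Maf shares 440 with an antisense gene, and both neighbors had a count of 0 in all libraries. Bcl3 shares 161 exonic bases with the antisense gene Gm16175, which had 0 to 4 counts, and no source used here says if reads were counted by strand. A promoter window was found in the RefSeq table of GRCm38.p6 for 2 of the 6 genes, Nfil3 and Bcl3. It runs from 250 bases before to 50 after the RefSeq start, which for both genes lies upstream of the gene start in the positions above. All distances to the start below are from the RefSeq start. These 2 windows are shown because the RefSeq table held none for the other genes. The Nfil3 window is at chr13:52980990-52981289 and the Bcl3 window at chr7:19822706-19823005, both on the minus strand and printed 5′ to 3′ along the gene, and the capitals mark each match to the motifs searched on both strands.
Nfil3 promoter: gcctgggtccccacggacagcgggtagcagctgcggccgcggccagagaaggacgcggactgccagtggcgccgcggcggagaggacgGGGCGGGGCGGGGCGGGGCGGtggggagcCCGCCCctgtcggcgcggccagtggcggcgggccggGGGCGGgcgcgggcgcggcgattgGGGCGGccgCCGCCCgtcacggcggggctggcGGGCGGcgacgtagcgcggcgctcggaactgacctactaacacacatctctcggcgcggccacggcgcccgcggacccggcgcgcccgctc
Bcl3 promoter: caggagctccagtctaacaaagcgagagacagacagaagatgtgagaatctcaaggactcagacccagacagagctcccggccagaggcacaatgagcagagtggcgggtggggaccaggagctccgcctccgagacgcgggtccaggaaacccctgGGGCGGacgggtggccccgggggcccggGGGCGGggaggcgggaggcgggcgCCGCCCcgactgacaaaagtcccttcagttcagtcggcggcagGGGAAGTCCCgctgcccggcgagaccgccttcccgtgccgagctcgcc

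Every capital in the Nfil3 window belongs to a GC box (GGGCGG), the element bound by SP1, with 9 matches from 162 to 41 bases before the start, some of which overlap. The Bcl3 window held 3 GC boxes, at 93, 65 and 41 bases before the start, and 1 match to the NF-κB consensus, whose first base lies 2 bases after the start. A GC box was present in 35.7% of the 32851 promoter windows in the table, and the NF-κB consensus in 4.51%. GC content was 81.7% in the Nfil3 window and 69.0% in the Bcl3 window, against a median of 52.7% over all windows. The letters of the STAT3 motif (TTCNNNGAA, in 8.30% of all windows), the STAT6 motif (TTCNNNNGAA, 6.95%), the NFIL3 motif (TTANGTAA, 2.32%), the Maf core (TGCTGA, 19.5%), the cAMP response element (TGACGTCA, 1.79%) and the AP-1 motif (TGANTCA, 7.81%) are not in either window. These matches describe letters only, and no binding was measured.

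The libraries held 17001352 to 18918686 counts. The biological coefficient of variation was 4.48% in control, 4.54% in IL-4, 14.8% in IL-4+IL-6, 10.9% in IL-13 and 7.38% in IL-6+IL-13, and IL-4+IL-6 replicate 2 and IL-13 replicate 1 stood apart from their groups. All 7 macrophage markers were expressed in every group. Their sum was 18649 to 20818 CPM in control, between 14206 and 14682 in the IL-4 group and between 10857 and 12652 once IL-6 was added, and between 16822 and 19501 in the IL-13 group and 13705 and 14597 once IL-6 was added. It was thus lower with IL-6 on both cytokines with no overlap, but most of it was Lyz2, the lysozyme of myeloid cells, which averaged 14924 CPM in control and went from 9698 to 6852 with IL-6 on IL-4 and from 12745 to 8692 on IL-13. Single markers differed in direction. Adgre1, which encodes F4/80, averaged 884 and 1288 CPM without and with IL-6 on IL-4 and 941 and 1454 on IL-13, Cd68 averaged 1317 in control and 1509 to 1723 in the cytokine groups, and Mertk 143 in control and 8.27 to 17.9 in the cytokine groups. The part of these shifts in the results was not tested. Markers of neutrophils, B cells, dendritic cells, stromal cells, and mast cells with basophils were each higher in sum in all 3 control libraries than in any cytokine library. The 5 neutrophil markers summed to 248 to 299 CPM in control and to 0.979 to 1.87 in the cytokine groups, where Ly6g was at 0, and the 4 B cell markers to 10.2 to 10.8 against 0.567 to 1.55. For the 4 dendritic cell markers the sums were 15.03 to 17.2 and 0.169 to 1.04 CPM, for the 4 stromal markers 16.0 to 20.8 and 0 to 0.375, and for the 4 mast cell and basophil markers 5.11 to 5.99 and 0 to 0.236. The 4 T cell markers summed to 0.0554 to 0.280 CPM in control, with Cd3e at 0, and to 0 to 0.0578 in the cytokine groups, so these ranges overlapped. The markers other than those of T cells move with every comparison against control below, and their part in those results was not tested. Between the 4 cytokine groups they were at or near 0 throughout. In bulk RNA, fewer cells of a type and less RNA per cell cannot be told apart.

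**Figure D1:**
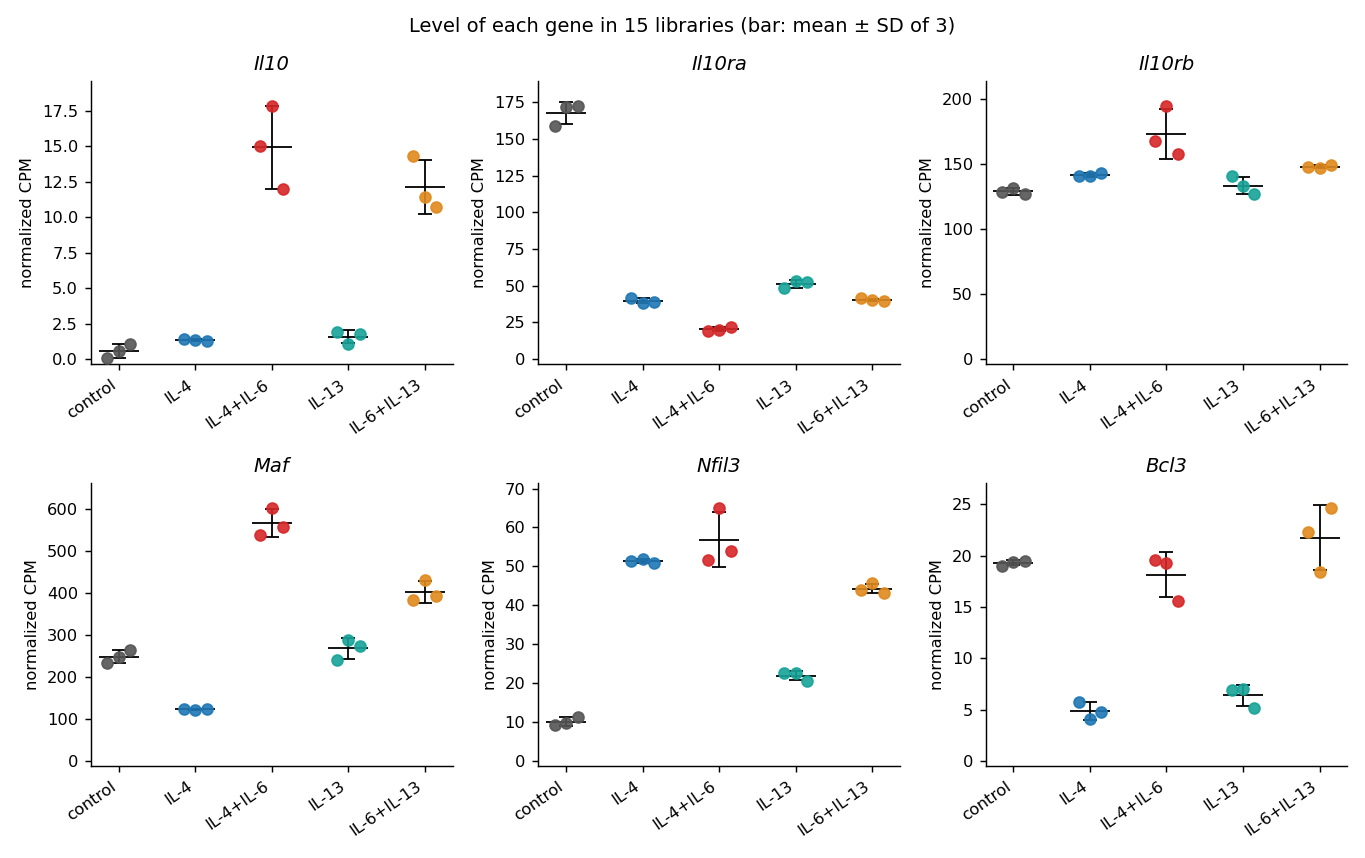
Normalized CPM (y axis, linear) of the 6 genes in the 15 libraries, by group (x axis), where each point is a library and the black bars are the mean ± SD of 3. Il10 was at 1.93 CPM or lower in the control, IL-4 and IL-13 libraries and at 10.7 or higher in all 6 libraries with IL-6, whereas Il10ra was highest in the control libraries.

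Il10 messenger RNA was scarce without IL-6 and rose in both groups that received it. In counts, the control replicates held 1, 11 and 19 reads of Il10, the IL-4 replicates 26, 24 and 23, and the IL-13 replicates 36, 19 and 34. With IL-6 the counts were 264, 302 and 208 in IL-4+IL-6 and 247, 210 and 192 in IL-6+IL-13. The lowest library with IL-6 therefore held more than 5 times the reads of the highest library without it, and these groups did not overlap.

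On the scale of normalized CPM (counts divided by library totals that were scaled by TMM factors), Il10 averaged 0.576 ± 0.508 in control, 1.33 ± 0.0682 in IL-4, 1.58 ± 0.453 in IL-13, 14.9 ± 2.91 in IL-4+IL-6 and 12.1 ± 1.91 in IL-6+IL-13 (SD, n = 3). Adding IL-6 raised Il10 11.2-fold on IL-4 (log2 fold change 3.49, 95% interval 2.84 to 4.13, adjusted p = 6.29e-08) and 7.59-fold on IL-13 (2.92, 2.29 to 3.56, adjusted p = 7.86e-07). A change at least as large in size was seen in 1.08% of the genes tested in the first comparison and in 0.854% in the second. On log2(FPKM + 1), a scale that understates changes of low genes, the log2 fold changes were 2.52 on IL-4 and 2.17 on IL-13. Against control, Il10 was 26.1-fold higher in IL-4+IL-6 (adjusted p = 2.36e-09) and 21.2-fold higher in IL-6+IL-13 (adjusted p = 9.73e-09), with log2 fold changes of 4.71 and 4.41, which were 3.03 and 2.81 on log2(FPKM + 1).

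The rises of Il10 in IL-4 and in IL-13 over control were small and rested on few reads. Il10 was 2.33-fold higher in IL-4 (log2 fold change 1.22 ± 0.473 SE, adjusted p = 0.0304) and 2.79-fold higher in IL-13 (1.48 ± 0.457, adjusted p = 0.0101), and on log2(FPKM + 1) these changes were 0.51 and 0.64. Control replicate 1, with its single read, carried much of the first of these, since without it the log2 fold change in IL-4 was 0.67 (adjusted p = 0.115). The call was also lost without control replicate 2 (1.29, adjusted p = 0.0546) and without IL-4 replicate 1 (1.22, adjusted p = 0.0577), and over the 22 alternatives the adjusted p ran from 0.00018 to 0.115. Without control replicate 3, the control library with the most Il10, the log2 fold changes over control rose to 2.02 in IL-4, 2.28 in IL-13, 5.49 in IL-4+IL-6 and 5.20 in IL-6+IL-13. The IL-13 call held in all 22 alternatives (adjusted p up to 0.0346). Between IL-4 and IL-13 the level of Il10 did not pass the test (log2 difference -0.26, 95% interval -1.08 to 0.56, adjusted p = 0.701), nor did it between IL-4+IL-6 and IL-6+IL-13 (0.30, -0.20 to 0.80, adjusted p = 0.373).

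The ligand-binding chain moved the opposite way. Il10ra was highest in control, at 159, 172 and 172 CPM, and was at 41.6, 38.5 and 38.9 CPM in IL-4 and at 48.4, 53.3 and 52.8 in IL-13. With IL-6 it was at 19.3, 19.9 and 21.9 CPM in IL-4+IL-6 and at 41.4, 40.0 and 39.4 in IL-6+IL-13. The order of the group means was thus control, IL-13, IL-6+IL-13, IL-4 and IL-4+IL-6, in which IL-6+IL-13 and IL-4 overlapped and all other neighbors were apart.

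Il10ra fell 4.22-fold with IL-4 (log2 fold change -2.08 ± 0.0698, adjusted p = 1.37e-13) and 3.25-fold with IL-13 (-1.70 ± 0.0685, adjusted p = 2.19e-12). IL-6 lowered it again, 1.95-fold on IL-4 (-0.96 ± 0.0732, adjusted p = 9.81e-09) and 1.28-fold on IL-13 (-0.35 ± 0.0694, adjusted p = 0.000852). In IL-4+IL-6 it was 8.23-fold below control (adjusted p = 1.07e-15) and in IL-6+IL-13 4.16-fold below (adjusted p = 1.32e-13). The values over control move with the markers of other cells, and those with IL-6 move with the sum of the macrophage markers, which was mostly Lyz2. Their part in either was not tested.

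Il10rb, the shared chain, stayed within a narrow range. It averaged 129 ± 2.55 CPM in control, 133 ± 6.78 in IL-13, 142 ± 1.44 in IL-4, 148 ± 1.40 in IL-6+IL-13 and 173 ± 19.1 in IL-4+IL-6 (SD, n = 3). The control and IL-13 libraries overlapped, and IL-4+IL-6 replicate 2, at 194 CPM, was the highest library of all, with 167 and 157 CPM in the other 2 replicates. With IL-6 on IL-4, Il10rb was 1.22-fold higher (log2 fold change 0.29 ± 0.0698, adjusted p = 0.00308), which left it 1.34-fold above control (0.42 ± 0.0699, adjusted p = 3.85e-05).

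The other differences of Il10rb were small. The rise in IL-6+IL-13 over control (0.20, adjusted p = 0.0205) was lost in 4 of the 22 alternatives, upper-quartile scaling (0.15, adjusted p = 0.0728), FPKM with either pseudocount (adjusted p = 0.0851 and 0.0822) and the omission of control replicate 3 (0.19, adjusted p = 0.0595). That in IL-4+IL-6 over IL-6+IL-13 (0.22, adjusted p = 0.0209) was lost in 5, among them the omission of IL-4+IL-6 replicate 2 (0.13, adjusted p = 0.0973), of IL-6+IL-13 replicate 1 (0.21, adjusted p = 0.059) and of IL-6+IL-13 replicate 2 (0.21, adjusted p = 0.0718). In IL-4 over control the log2 fold change was 0.13 (adjusted p = 0.0983), although the libraries of these groups did not overlap. It passed the test in 8 of the alternatives, with adjusted p from 0.000477 to 0.178 over all of them. The lowest came from a fit of these groups only, without the spread of the other groups. In IL-6+IL-13 over IL-13 it was 0.15 (95% interval 0.00 to 0.30, adjusted p = 0.135), in IL-13 over control 0.05 (-0.10 to 0.19, adjusted p = 0.579) and in IL-4 over IL-13 0.09 (-0.06 to 0.24, adjusted p = 0.446), and these 3 passed the test in 0 of the 22 alternatives.

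Levels of different genes were compared per length, with the deposited FPKM values. Il10ra was at 50.0 ± 2.02 FPKM in control, above Il10rb at 35.4 ± 0.444, and in every cytokine group it was below Il10rb. The ratio of Il10ra to Il10rb was 1.41 ± 0.0661 in control (1.35 to 1.48), 0.422 ± 0.0411 in IL-13 (0.375 to 0.453), 0.305 ± 0.0141 in IL-4 (0.295 to 0.321), 0.296 ± 0.00877 in IL-6+IL-13 (0.287 to 0.305) and 0.129 ± 0.0206 in IL-4+IL-6 (0.111 to 0.152). The control libraries were above 1 and all cytokine libraries below it, and the ratios of IL-4 and IL-6+IL-13 overlapped. Il10 itself was at 0.459 FPKM in control, the lowest of the 6 genes there, whereas in IL-4+IL-6 it was at 10.7 FPKM, above Il10ra at 5.50. In IL-6+IL-13 Il10 was at 9.03 FPKM, below Il10ra at 11.2.

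**Figure D2:**
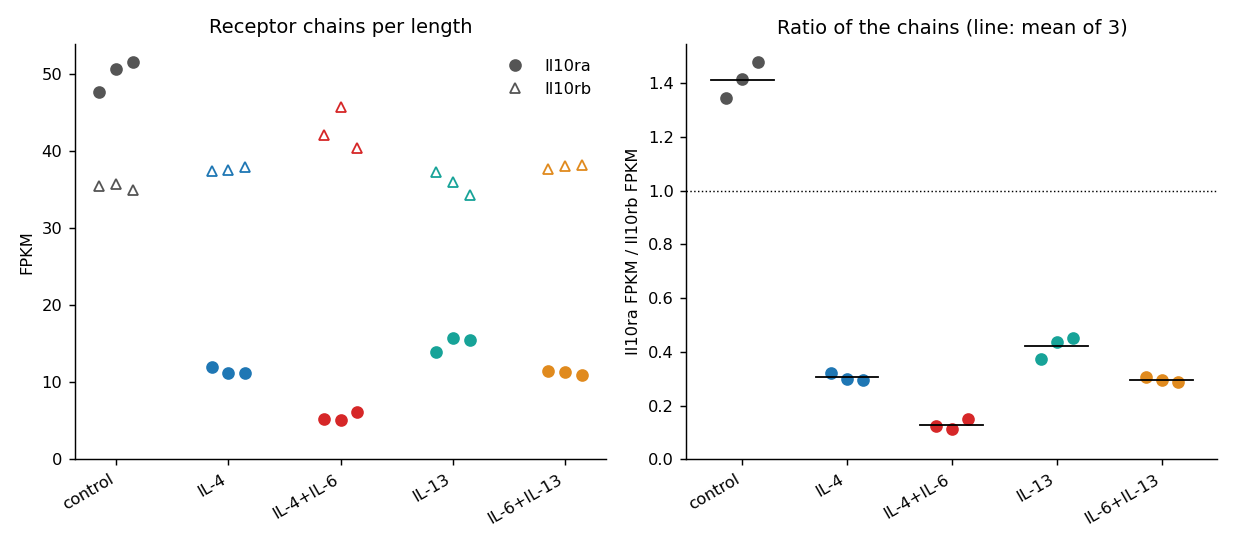
Left, FPKM (y axis, linear) of Il10ra (filled circles) and Il10rb (open triangles) in each library by group (x axis). Right, the ratio of the 2 values in each library, with the mean of 3 as a line and a dotted line at 1. The control libraries had ratios of 1.35 to 1.48 and the IL-4+IL-6 libraries of 0.111 to 0.152.

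Maf was lowered by IL-4 and was not called in IL-13 over control. It was at 233, 247 and 264 CPM in control, at 123, 122 and 124 in IL-4 and at 241, 289 and 274 in IL-13. With IL-6 it was at 537, 602 and 557 CPM in IL-4+IL-6 and at 383.1, 431.3 and 392.4 in IL-6+IL-13. The IL-4 libraries were the lowest and the IL-4+IL-6 libraries the highest, the control and IL-13 libraries overlapped, and the other groups were apart.

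IL-4 lowered Maf 2.01-fold (log2 fold change -1.01 ± 0.0759, adjusted p = 3.55e-09). In IL-13 the log2 fold change over control was 0.11 (95% interval -0.05 to 0.27, adjusted p = 0.216), and it passed the test only when IL-13 replicate 1 was left out (0.22, adjusted p = 0.0166). The direct comparison of IL-4 with IL-13 gave a 2.17-fold lower level in IL-4 (adjusted p = 2.91e-08). IL-6 raised Maf 4.59-fold on IL-4 (2.197 ± 0.078, adjusted p = 4.96e-13) and 1.501-fold on IL-13 (0.59 ± 0.0747, adjusted p = 1.03e-05). Maf thus ended 2.28-fold above control in IL-4+IL-6 (adjusted p = 2.48e-10) and 1.62-fold above it in IL-6+IL-13 (adjusted p = 3.57e-07), and it was 1.41-fold higher in the former than in the latter (adjusted p = 7.17e-05).

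Nfil3 was raised by both cytokines and more by IL-4. It was at 9.22, 9.75 and 11.4 CPM in control, 51.4, 51.9 and 50.8 in IL-4 and 22.6, 22.5 and 20.6 in IL-13. It was at 51.7, 65.0 and 53.9 CPM in IL-4+IL-6 and at 44.0, 45.6 and 43.2 in IL-6+IL-13. The libraries with IL-4 overlapped whether or not IL-6 was added, and all other groups were apart in the order control, IL-13 and IL-6+IL-13, below those with IL-4.

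Nfil3 rose 5.08-fold with IL-4 (log2 fold change 2.34 ± 0.0985, adjusted p = 2.10e-12) and 2.17-fold with IL-13 (1.11 ± 0.101, adjusted p = 5.20e-08). It was 2.34-fold higher in IL-4 than in IL-13 (adjusted p = 7.88e-08). Addition of IL-6 raised Nfil3 2.02-fold on IL-13 (1.01 ± 0.0917, adjusted p = 1.66e-07), whereas on IL-4 the log2 difference was 0.15 (95% interval -0.04 to 0.33, adjusted p = 0.200). With IL-6 the gap between the groups was smaller, 1.28-fold in favor of IL-4+IL-6 over IL-6+IL-13 (adjusted p = 0.00462). Over control the level was 5.62-fold higher in IL-4+IL-6 (adjusted p = 4.68e-13) and 4.38-fold higher in IL-6+IL-13 (adjusted p = 6.83e-12).

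Bcl3 fell with either cytokine alone and returned to near the control level with IL-6. The control replicates were at 19.02, 19.39 and 19.47 CPM, the IL-4 replicates at 5.78, 4.04 and 4.75 and the IL-13 replicates at 6.91, 7.04 and 5.20. With IL-6 the values were 19.6, 19.3 and 15.6 CPM in IL-4+IL-6 and 22.3, 18.4 and 24.6 in IL-6+IL-13. The IL-4 and IL-13 libraries overlapped with each other, as did the control libraries with both groups that received IL-6, and there was a wide gap between these sets.

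Bcl3 was 3.96-fold lower in IL-4 (log2 fold change -1.99 ± 0.155, adjusted p = 5.77e-09) and 3.03-fold lower in IL-13 (-1.60 ± 0.1499, adjusted p = 8.40e-08) than in control. IL-6 raised it 3.73-fold on IL-4 (1.90 ± 0.156, adjusted p = 2.50e-08) and 3.41-fold on IL-13 (1.77 ± 0.149, adjusted p = 7.24e-08). Against control the log2 difference was -0.09 in IL-4+IL-6 (95% interval -0.38 to 0.20, adjusted p = 0.583) and 0.17 in IL-6+IL-13 (-0.11 to 0.46, adjusted p = 0.275). Bcl3 did not pass the test between IL-4 and IL-13 (-0.39, -0.74 to -0.04, adjusted p = 0.141) or between IL-4+IL-6 and IL-6+IL-13 (-0.26, -0.55 to 0.03, adjusted p = 0.164).

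**Figure D3:**
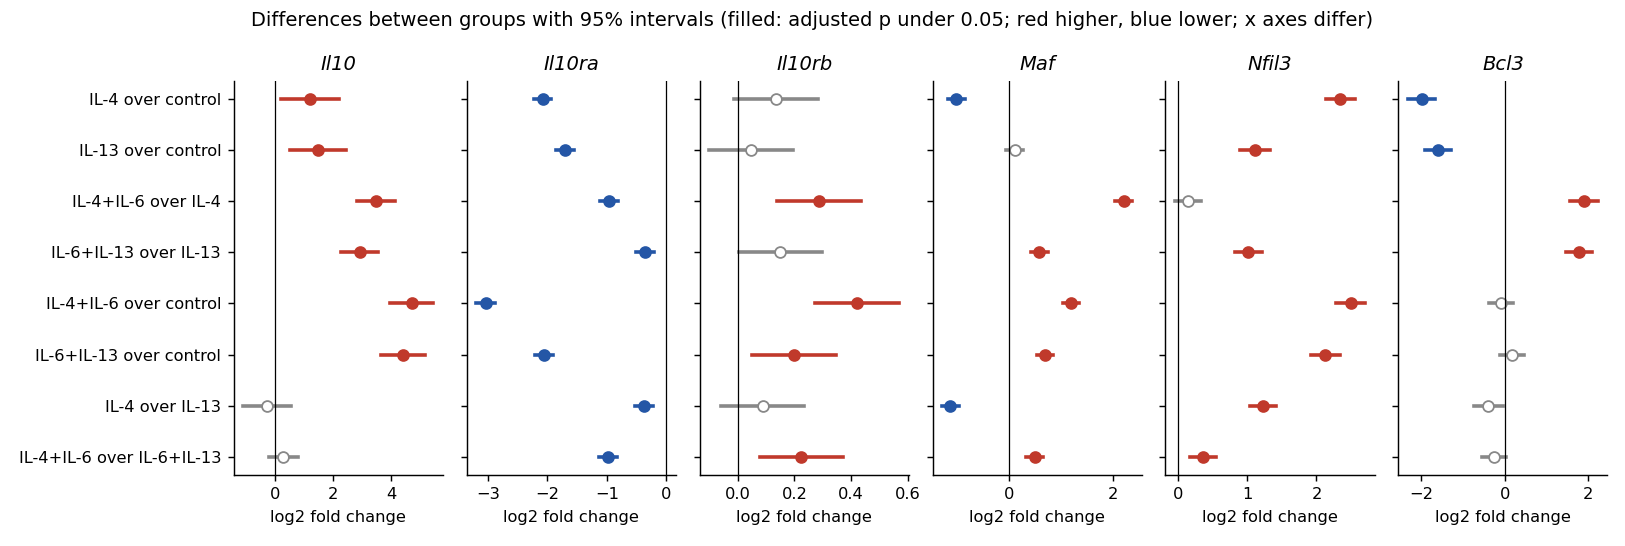
Log2 fold changes (x axes, which differ between panels) of the 6 genes in the 8 comparisons between groups (y axis), with 95% intervals. Filled points passed an adjusted p of 0.05, red for higher and blue for lower, and open gray points did not. Il10ra was lower in all 8 comparisons, whereas Il10 was called higher in 6 and did not pass the test in the other 2.

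In counts of the 6 genes, IL-4 over control raised 2 (Il10 and Nfil3), where 32.1% of all genes tested were called higher, and lowered 3 (Il10ra, Maf and Bcl3), where 35.9% were called lower. IL-13 over control raised the same 2 and lowered Il10ra and Bcl3, against 29.0% higher and 31.1% lower among all genes. In IL-4+IL-6 over control 4 genes were higher (35.4% of all genes) and 1 lower (37.5%), and in IL-6+IL-13 over control also 4 higher (31.9%) and 1 lower (32.1%). These 4 comparisons share the 3 control libraries, and in each of them about 3 in 5 genes or more were called, so a call over control sets no gene apart. The addition of IL-6 to IL-4 raised Il10, Il10rb, Maf and Bcl3 and lowered Il10ra, where 20.7% of all genes were called higher and 18.7% lower. Its addition to IL-13 raised Il10, Maf, Nfil3 and Bcl3 and lowered Il10ra, where 12.1% were called higher and 13.5% lower. The median log2 fold change of the 6 genes was 1.09 in the former and 0.80 in the latter, against 0.04 and 0.01 over all genes tested.

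IL-4 differed from IL-13 in 3 of the genes, with Nfil3 higher (5.16% of all genes were) and Il10ra and Maf lower (7.61%). Il10ra was 1.30-fold lower in IL-4 than in IL-13 (log2 difference -0.38 ± 0.0694, adjusted p = 0.00122). IL-4+IL-6 differed from IL-6+IL-13 in 4, with Il10rb, Maf and Nfil3 higher (15.8%) and Il10ra lower (15.5%). There, Il10ra was 1.98-fold lower in IL-4+IL-6 (-0.98 ± 0.0732, adjusted p = 2.12e-08).

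Whether IL-6 acted differently on the 2 cytokines was tested as the difference between its effects, in which no library is shared. The rise of Maf and the fall of Il10ra with IL-6 were larger on IL-4, and the effect on Nfil3 was larger on IL-13. The signed difference was called higher for Maf and lower for Il10ra and Nfil3, where 3.22% of all genes were called higher and 4.42% lower. For Maf the log2 effects of IL-6 were 2.197 on IL-4 and 0.59 on IL-13, a difference of 1.61 (95% interval 1.39 to 1.84, adjusted p = 1.43e-07). For Il10ra they were -0.96 and -0.35, a difference of -0.61 (-0.82 to -0.39, adjusted p = 0.000765), and for Nfil3 0.15 and 1.01, a difference of -0.87 (-1.14 to -0.60, adjusted p = 0.000236). The difference was 0.56 for Il10 (-0.40 to 1.52, adjusted p = 0.608), 0.14 for Il10rb (-0.07 to 0.35, adjusted p = 0.55) and 0.13 for Bcl3 (-0.33 to 0.59, adjusted p = 0.841). The interval of Il10 spans both a smaller effect on IL-4 and one nearly 3 times as large, so equal effects on Il10 are not shown.

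**Figure D4:**
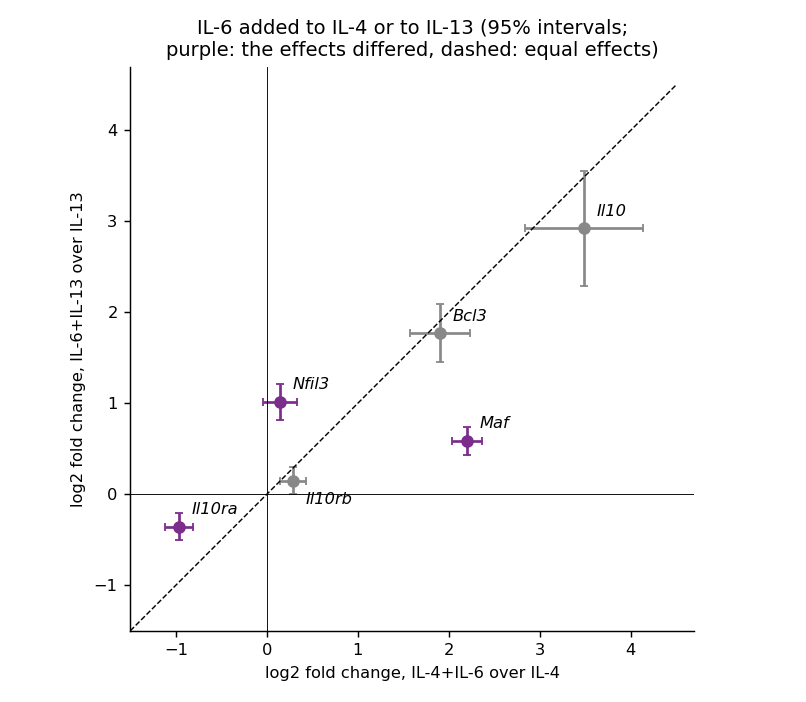
Log2 fold change with IL-6 added to IL-4 (x axis) against that with IL-6 added to IL-13 (y axis) for the 6 genes, with 95% intervals and a dashed line where both are equal. Purple points (Maf, Il10ra and Nfil3) had effects that differed at an adjusted p of 0.05, and Maf lay far below the line at 2.197 and 0.59.

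The molecules that carry the IL-10 signal were all expressed, and the list of 8 (JAK kinases, STAT factors and SOCS inhibitors) had 2 genes higher and 6 lower in IL-4 over control, with the same counts in IL-13 over control. The median log2 fold changes were -0.57 and -0.47. Over all genes tested the medians were -0.05 in IL-4 over control, -0.02 in IL-13 over control, 0.04 with IL-6 on IL-4 and 0.01 with IL-6 on IL-13. The shares of all genes called higher and lower in these 4 comparisons, in the same order, were 32.1% and 35.9%, 29.0% and 31.1%, 20.7% and 18.7%, and 12.1% and 13.5%, and the counts in this and the following lists stand beside them. Socs1, an inhibitor of JAK kinases, rose 35.8-fold with IL-4 and 10.1-fold with IL-13. Socs3, the STAT3 feedback inhibitor, fell 5.14-fold and 6.82-fold, and Stat3 itself 2.30-fold and 1.87-fold. Adding IL-6 to IL-4 raised 5 of the 8 and lowered 1 (median 0.33), and adding it to IL-13 raised 3 and lowered 1 (median 0.08). Socs3 went from 1.69 to 129 CPM on IL-4 and from 1.27 to 107 on IL-13, and Stat3 rose 3.29-fold and 3.09-fold.

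Genes known to be raised by IL-10 in macrophages changed in both directions. Of the 13, all tested, 5 were higher and 8 lower in IL-4 over control (median -0.62), and 6 were higher and 5 lower in IL-13 over control (median 0.10). With IL-6 10 were higher and 3 lower on IL-4 (median 0.88), and 9 were higher and 2 lower on IL-13 (median 1.15), where 20.7% of all genes were called higher and 18.7% lower on IL-4, and 12.1% and 13.5% on IL-13. Socs3 is in both lists. With IL-6, Il4ra, the IL-4 receptor chain, was 64.8-fold higher on IL-4 and 30.6-fold higher on IL-13, and Cd163, the hemoglobin scavenger receptor, 13.5-fold and 3.18-fold. Hmox1, which degrades heme, rose 3.53-fold on IL-4 and 2.22-fold on IL-13, and Sbno2, a transcriptional corepressor downstream of STAT3, rose 3.43-fold and 3.22-fold. Tnfrsf1b, a TNF receptor, and Dusp1, a MAP kinase phosphatase, were lower with IL-6 on both cytokines, and Tnip3 was lower on IL-4. Socs3 and Il4ra are known to be raised by IL-6 as well as by IL-10.

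**Figure D5:**
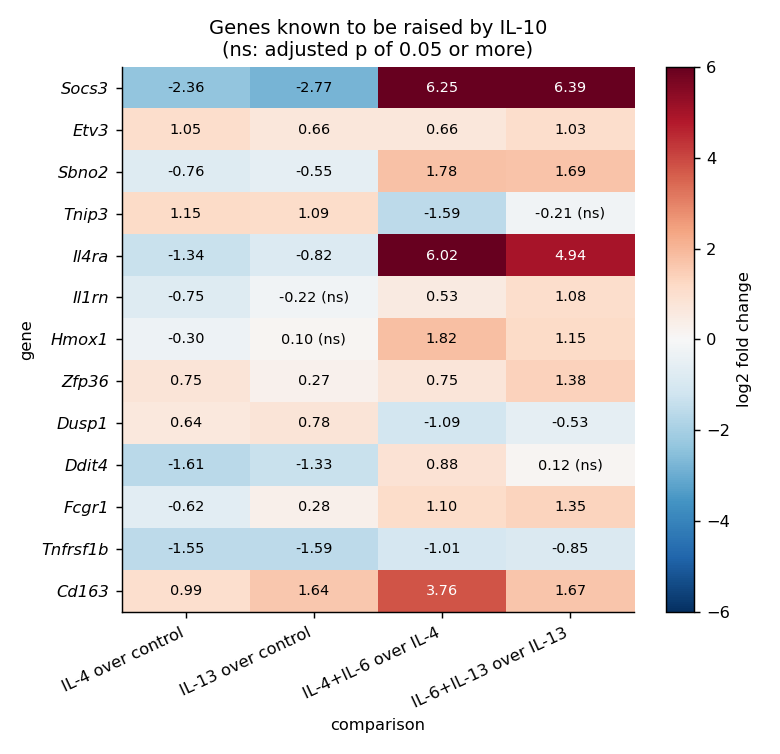
Log2 fold changes of the 13 genes known to be raised by IL-10 (rows) in 4 comparisons (columns), with the value in each cell and color from blue (lower) to red (higher); ns marks an adjusted p of 0.05 or more. Socs3 (6.25 and 6.39) and Il4ra (6.02 and 4.94) had the largest values with IL-6, whereas Tnfrsf1b was lower in all 4 comparisons.

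Of 12 inflammatory genes that IL-10 is known to restrain in activated macrophages, 9 were tested, and Il6, Il23a and Nos2 had at most 7, 2 and 23 counts in any library. In IL-4 over control and in IL-13 over control 3 were higher and 3 lower each (medians -0.64 and -0.15, also with genes near 0 counts at their bound). Il12a, a subunit of IL-12, was at 1.40 CPM in control and at 0 in all cytokine libraries, at least 8.55-fold lower in IL-4 and 8.66-fold in IL-13, and Il12b was at least 6.79-fold and 6.88-fold lower (bounds from 3 counts per library, which cover counting error only). Il1a fell 9.92-fold with IL-4 and 9.59-fold with IL-13, and Ptgs2, the inducible cyclooxygenase, rose 6.93-fold and 3.59-fold. Ptgs2 had only 4 to 12 counts in the control libraries, so its folds over control are imprecise. With IL-6 1 gene was higher and 1 lower on IL-4 (median 0.00, or -0.02 with the bounds), and 3 were higher and 1 lower on IL-13 (median 1.45), against the shares of all genes given above. The median of 1.45 is the value of a gene that was not called (adjusted p = 0.134), so it shows no rise of the list as a set. Tnf was the gene lowered, 1.58-fold on IL-4 and 1.39-fold on IL-13, and the chemokine Ccl4 rose 2.102-fold and 4.43-fold. Ptgs2 rose 3.80-fold with IL-6 on IL-13 (adjusted p = 0.000311), its log2 fold change on IL-4 was -0.04 (adjusted p = 0.945), and the difference between these effects was -1.96 (adjusted p = 0.0152).

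The 17 other regulators of Il10 transcription were all tested. In IL-4 over control 7 were higher and 5 lower (median -0.05), and in IL-13 over control 7 were higher and 4 lower (median 0.03). Irf4, a partner of PU.1 that STAT6 induces, went from 6.15 CPM in control to 37.2 in IL-4 and 12.01 in IL-13, and Prdm1 (Blimp-1) from 32.4 to 4.01 and 4.56. Bhlhe40, a repressor of Il10, rose 2.79-fold with IL-4 and 1.61-fold with IL-13. With IL-6, 6 rose and 6 fell on IL-4 (median -0.01), and 5 rose and 4 fell on IL-13 (median 0.01), against the shares and medians of all genes given above. Irf4 fell 11.4-fold on IL-4 and 4.18-fold on IL-13, and Rps6ka5 (MSK1), a kinase of CREB, 2.32-fold and 1.70-fold. Map3k8 (TPL2), a kinase upstream of ERK, rose 2.87-fold on IL-4 and 1.89-fold on IL-13, and Ahr, the aryl hydrocarbon receptor, 2.06-fold and 2.01-fold. Map3k8 had fallen 2.36-fold with IL-4 and 2.29-fold with IL-13. It was thus 1.22-fold above control in IL-4+IL-6 and 1.21-fold below it in IL-6+IL-13.

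Among 12 relatives of Maf, Nfil3 and Bcl3, 9 were tested, and Mafa, Nrl and Hlf had at most 7, 0 and 10 counts. IL-4 raised 3 and lowered 3 over control (median 0.15), and IL-13 raised 3 and lowered 2 (median 0.17). Nfkbiz, an atypical IκB protein like Bcl3, fell 9.43-fold with IL-4 and 3.32-fold with IL-13. With IL-6, 6 rose and 2 fell on IL-4 (median 0.33), and 4 rose and 1 fell on IL-13 (median 0.19), against the shares of all genes given above. Nfkbid, a further IκB protein of this kind, fell 3.54-fold on IL-4 and 1.96-fold on IL-13.

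Of 11 other ligands and receptors of the IL-10 family, Il20rb alone had enough counts to be tested. It rose 1.92-fold with IL-4, from 2.14 to 4.11 CPM, and 1.78-fold further with IL-6 on IL-4, whereas it did not pass the test in IL-13 over control (log2 fold change 0.14, adjusted p = 0.558) or with IL-6 on IL-13 (0.35, adjusted p = 0.211). Il20, Il22, Ifnl2, Ifnl3 and Il22ra1 had a count of 0 in all libraries, which with 3 counts as the limit per library does not exclude low expression. Il19, Il24, Il20ra, Il22ra2 and Ifnlr1 had at most 2, 1, 3, 2 and 19 counts in any library.

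The tested genes whose log2 CPM followed each of the 6 most closely over the 15 libraries were ranked among 10960 genes. These correlations describe libraries that share their groups and depth, so many genes reach high values. Rab5c, Tnfrsf1a and Rab7 came closest to Il10 (r = 0.959, 0.957 and 0.956), and Slamf7, Rap1gap2 and Acox3 to Il10ra (0.996, 0.993 and 0.992). Asna1, Washc3 and Atp5f1 came closest to Il10rb (0.986, 0.983 and 0.980), Ezr, Rab14 and Lrp8 to Maf (0.965, 0.964 and 0.956), Clec10a, Rars and Kcnd3 to Nfil3 (0.978, 0.977 and 0.975) and Ms4a6c, Sptlc2 and Ly86 to Bcl3 (0.979, 0.967 and 0.966). Among the 6 genes themselves, Il10ra ran opposite to Nfil3 (r = -0.93), and Il10 had an r of 0.71 with Maf, 0.75 with Nfil3 and 0.39 with Bcl3, all over the same 15 libraries.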

How the data were processed

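RNA of 15 BMDM libraries, 3 per group, was sequenced by a service company. The submitters' processing notes name GRCm38, CASAVA, Bowtie2 2.2.3, HISAT2 2.1.0, TopHat2 and DESeq2, without their roles. The authors deposited raw read counts for 53465 genes, and FPKM values for 26080 of them that the authors had made from the same counts, a gene length and the library total. The implied lengths of the 6 genes equaled the exon lengths of the GENCODE annotation of GRCm38, which gave their positions. Whether reads were counted by strand, and how reads shared by several genes were treated, is not given in the sources used here.

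The counts of all 15 libraries were fitted together with edgeR 4.0.16 in R 4.3.3, with filterByExpr (minimum count 10), TMM factors, no covariate, and the quasi-likelihood test (glmQLFit and glmQLFTest, two-sided). The 9 comparisons were each adjusted by Benjamini-Hochberg over 13938 genes, and a call is an adjusted p under 0.05. SE and 95% intervals come from this fit. With 3 libraries against 3 an exact permutation test cannot go below 0.10, so none is given. The fit was tested on simulated data. The 6 genes and the lists were chosen with earlier results of these data known. The text names the 6 genes in every comparison, the called members with the largest changes in each list (up to 4 per comparison) with their values in the matching comparison, and the 3 genes with the nearest pattern to each of the 6 (mean of at least 1 CPM, log2 CPM with a prior count of 2). List members that make up a small count were named after their values were seen, and some list members and a detail of the mice are not reported here. The alternatives were upper-quartile factors, DESeq2 1.42.0, no filter, a replicate block, limma 3.58.1 on log2 of the FPKM with a pseudocount of 1 or 0.1 (genes with at least 0.5 FPKM in 3 libraries), a fit of the compared groups only, and fits with 1 library left out at a time.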

Additional observations from a re-analysis of the deposited data

Results flagged for a closer look

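For 3 of the 6 genes the effect of IL-6 differed between IL-4 and IL-13, by a test of the difference itself in edgeR's quasi-likelihood fit. Over all genes tested, 3.22% were called higher in this difference and 4.42% lower. The log2 effect of IL-6 on IL-4 minus that on IL-13 was 1.61 for Maf (adjusted p = 1.43e-07), -0.61 for Il10ra (adjusted p = 0.000765) and -0.87 for Nfil3 (adjusted p = 0.000236). Maf had been lowered by IL-4 and not called in IL-13, and Nfil3 had been raised more by IL-4, so the starting levels to which IL-6 was added differed, with 123 CPM of Maf in IL-4 against 268 in IL-13 and 51.3 CPM of Nfil3 against 21.9. The part of these starting levels in the differences was not tested.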

How the results depend on the processing

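None of the called values of the 6 genes reversed in direction under the alternatives, in which the changes of the other listed genes were not followed. Of the values that were not called, that of Bcl3 in IL-4+IL-6 over control (-0.09) ran from -0.24 to 0.01, the highest value being that without IL-4+IL-6 replicate 3. On log2(FPKM + 1) the changes of Il10 were all smaller than reported and kept their calls, and the number of the 6 genes called stayed within 1.5 times that reported in every comparison. The number of all genes called in IL-4 over IL-13 was 1779 and ranged from 1088 to 2915 with 1 library left out (2865 without IL-4+IL-6 replicate 2 and 2915 without IL-13 replicate 1). In IL-4+IL-6 over IL-6+IL-13 it was 4368, and 2900 in a fit of these groups only, and the cause was not tested. Of the changes of single genes, the omission of a library gained 7 calls and lost 7, and the other settings gained 2 and lost 5, all of Il10 in IL-4 over control, of Il10rb, or of Maf in IL-13 over control. In FPKM the ratio of the highest to the lowest group mean was 9.09 for Il10ra, against 8.23 in normalized CPM, and 4.28 for Maf, against 4.59. The FPKM values, which are scaled by library totals, shifted the median of all genes by -0.10 for IL-6 on IL-4 and by -0.14 for IL-4+IL-6 over control with a pseudocount of 1, and Il10rb stayed higher in both. The share of higher among called genes fell from 52.6% to 38.3% in the former, and to 39.0% with upper-quartile factors, in IL-6+IL-13 over IL-13 from 47.3% to 36.4%, and for the difference between the IL-6 effects from 42.2% to 31.7% with upper-quartile factors and 31.5% without a filter.

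Same-numbered libraries of different groups did not deviate together (r from -0.28 to 0.16, above 0.1 in 3 of 30 pairs), so the replicate numbers were not taken as pairs. A replicate block gave 9305 called genes in IL-4 over control, against 9476 without it, and 1552 in IL-4 over IL-13, against 1779, and changed no call of the 6 genes.

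Depth limits Il10 most, with 1 to 36 counts in the libraries without IL-6, so changes among these groups are imprecise.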
